A study of Mus musculus with 9 samples.

Results

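The genes described here are receptor chains for cytokines that signal through the common gamma chain, the 2 chains of the interleukin-6 receptor, and Socs1, an inhibitor that cytokine signals induce and that acts back on the same receptors. They were chosen by name, with earlier results of these data known: Il7r, Il2ra, Il2rb, Il2rg, Il4ra, Il15ra and Il21r for the common gamma chain family, Il6ra and Il6st for interleukin-6, and Socs1. These 10 genes are 10 of 20258 named genes on the array and are read by 12 of 55537 probes. All 10 were above background on at least 8 of the 9 arrays and entered every test.

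RNA of thymocytes from C57BL/6 mice was hybridised to 9 one-colour arrays, 1 for each group. Control mice were Brd1+/+, Tie2-Cre and conditional knockout (CKO) mice were Brd1flox/flox, Tie2-Cre, so both genotypes carried the Tie2-Cre transgene, which is driven by a promoter of endothelial and haematopoietic cells and is not specific to T cells. From 8-week-old mice of both genotypes, cells were sorted as double positive (DP, with CD4 and CD8), CD4 single positive (CD4SP) or CD8 single positive (CD8SP), and CD4SP cells lacking surface TCRβ were sorted from the CKO alone. CD8SP cells were also sorted from 14-week-old mice of both genotypes that carried OT-l, a transgene encoding 1 T cell receptor that recognises MHC class I. Nothing in the labels says whether groups came from separate mice. With 1 array per group, p-values and the residual SD of the fit measure how far the CKO minus control difference varied between populations. They do not measure the spread between replicates, and that variation may be technical in part.

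The share of probes well above background ranged from 39.0% to 45.9% over the arrays. Brd1, the targeted gene, had 1 named probe, whose level was no lower with the CKO label (-0.79 and -0.33 in DP control and CKO, -1.09 and -0.98 in CD4SP, -1.37 and -0.73 in CD8SP, -1.34 and -0.73 in OT-I CD8SP). The position of that probe relative to the deleted part was not known here, so it checks nothing about the deletion, and the genotypes below are those of the labels. All 12 T cell markers were above background on all 9 arrays, Cd4 lay at 3.14 to 3.50 on the 4 CD8SP arrays against 6.19 to 6.54 on the other 5, and Cd8a lay at -2.11 to -0.32 on the 3 CD4SP arrays against 4.60 to 5.46 on the other 6. Levels are log2 signals relative to the 75th percentile of the array (level 0). Signals of different probes are not on a common scale, so levels are compared within a gene and not between genes.

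Cytokine receptors of this family work by pairing chains. Il2rg, the common gamma chain, pairs with a private chain such as Il7r for interleukin-7 or Il4ra for interleukin-4, and Il2rb joins it in the receptors for interleukin-2 and interleukin-15. Binding brings together the kinases Jak1 and Jak3, which phosphorylate STAT factors, while SOCS proteins switch the signal off. In the thymus, interleukin-7 supports the early double-negative cells and again the cells that have passed positive selection, whereas DP cells are known for low Il7r and high Socs1.

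The DNA just before the start of 3 of these genes is shown: Il7r and Il6ra, which were higher in single-positive than in DP cells, and Socs1, which was lower in CD8SP than in DP cells. Il2rb, which passed in as many comparisons as Il6ra, is not shown because no window was matched to it. Each line is the 250 bases before the start in RefSeq (mouse build GRCm38.p6), at chr15:9529877-9530126, chr3:89913197-89913446 and chr16:10785537-10785786, all on the minus strand. Capitals mark matches to 1 of 7 short motifs searched on both strands.
Il7r: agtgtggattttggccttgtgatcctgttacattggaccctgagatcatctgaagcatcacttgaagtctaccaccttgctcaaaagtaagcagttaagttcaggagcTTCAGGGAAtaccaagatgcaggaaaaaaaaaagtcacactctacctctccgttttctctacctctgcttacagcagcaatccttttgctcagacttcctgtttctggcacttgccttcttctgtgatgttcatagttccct
Il6ra: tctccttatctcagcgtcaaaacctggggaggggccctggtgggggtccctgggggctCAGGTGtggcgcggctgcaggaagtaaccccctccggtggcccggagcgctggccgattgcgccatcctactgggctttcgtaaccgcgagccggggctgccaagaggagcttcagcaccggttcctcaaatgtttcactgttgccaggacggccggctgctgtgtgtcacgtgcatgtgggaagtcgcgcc
Socs1: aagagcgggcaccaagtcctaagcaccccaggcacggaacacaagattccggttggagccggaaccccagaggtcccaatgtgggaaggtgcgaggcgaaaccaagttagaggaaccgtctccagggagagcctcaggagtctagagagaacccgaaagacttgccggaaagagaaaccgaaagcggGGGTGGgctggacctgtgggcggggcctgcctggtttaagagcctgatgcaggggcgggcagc
The capitals in Il7r match TTCNNNGAA, the palindrome bound by many STAT factors, at position -142 from the start, and 8.3% of 32851 windows of 300 bases around RefSeq starts hold a match. In Il6ra they match CAGGTG, an E-box of the kind bound by E proteins, at -192 (20.2% of windows). In Socs1 they match CCACCC on the other strand, a Klf and Sp motif, at -63 (31.5% of windows). The other motifs searched were the STAT6 motif (6.95% of windows), TGTTTAC (Fox; 3.65%), CCGGAAG (Ets; 8.86%) and TGTGGT (Runx; 16.8%), of which Il7r held a Runx match at position 3, after its start. Each printed stretch held 1 match, so none overlapped, and a match is a string of letters and not a measured site. The stretches differed in composition: that of Il7r held 1 CpG dinucleotide and was 44.0% G and C, that of Il6ra held 18 (65.2%) and that of Socs1 held 13 (61.2%), against a median of 6 over the same 250 bases of all windows (quartiles 2 and 16). Windows were matched for 9 of the 10 genes, and of their 10 windows that of Il7r was the one with a TTCNNNGAA match.

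Il7r, the private chain of the interleukin-7 receptor, spanned the widest range of the 10 genes. Its level was -1.81 and 0.20 in DP cells of control and CKO mice, 4.67 and 4.90 in CD4SP control and CKO, 2.67 and 4.48 in CD8SP control and CKO, 0.33 and 4.00 in OT-I CD8SP control and CKO, and 0.22 in TCRβ-negative CD4SP cells of the CKO. Both CD4SP arrays and the CD8SP and OT-I arrays labelled CKO formed a high group, whereas DP, TCRβ-negative and OT-I control cells were low. In this order, the 4 high arrays were separated by gaps of less than the residual SD of the fit (1.00), and so were the OT-I control, TCRβ-negative and DP CKO arrays among themselves. Il7r rose by 5.59 on the log2 scale from DP to CD4SP (SE 0.75, 48.3-fold, adjusted p = 0.0249) and by 4.38 from DP to CD8SP (SE 0.75, 20.9-fold, adjusted p = 0.0415), both in limma over the 9 arrays. The rise was 6.49 in control and 4.70 in CKO arrays for CD4SP, and 4.48 and 4.28 for CD8SP. TCRβ-negative cells were sorted from the CKO alone, so their fitted differences take the genotype effect estimated from the other populations. Between the CKO arrays alone, their Il7r difference from CD4SP cells was -4.68 (25.6-fold). The TCRβ-negative group is 1 array, which the fit takes to vary like the others. It had a fitted Il7r level -5.53 relative to CD4SP cells (SE 0.96, adjusted p = 0.0642), which did not pass. It did pass with normexp background correction, without the detection filter, on slide 1 alone and without the OT-I pair, and not under the other alternatives. Between TCRβ-negative and DP cells of the CKO the Il7r difference was 0.02. Stage markers were also close between those 2 arrays: the log2 summed signal of 12 DP stage genes was 11.17 and 11.19, and that of 12 mature stage genes 7.64 and 8.07, against 7.96 and 10.41 in CD4SP CKO cells. The part of stage in the TCRβ-negative values was not tested.

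**Figure D1:**
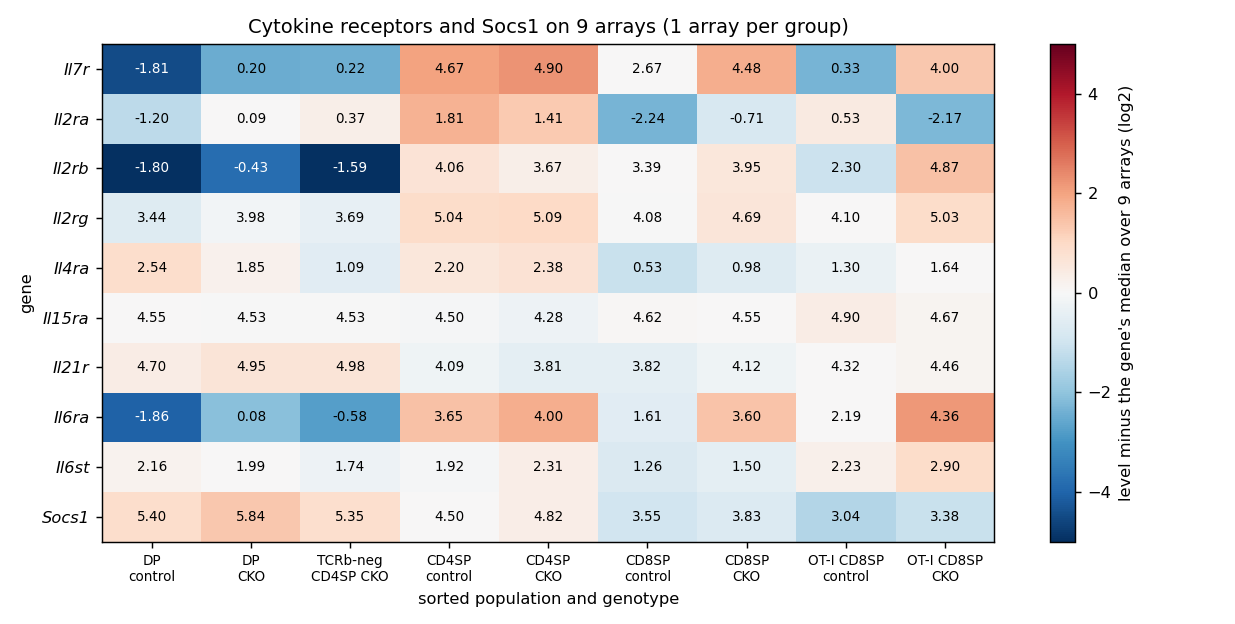
Log2 level of each of the 10 genes (vertical axis) on each of the 9 arrays (horizontal axis; 1 array per group), printed in each cell, with colour for the level minus the gene's own median over the 9 arrays. Il7r, Il2rb and Il6ra lie below their medians (blue) on DP and TCRβ-negative arrays and above them (red) on CD4SP arrays. For Il2rb the red is pale, with 4.06 and 3.67 in CD4SP control and CKO against a median of 3.39. Socs1 goes from 5.84 in DP CKO to 3.04 in OT-I control cells, with CD4SP control at its median of 4.50.

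Il2rb, the beta chain that transmits interleukin-2 and interleukin-15 signals, was low on 3 arrays and high on 6. It lay at -1.80 and -0.43 in DP control and CKO cells and at -1.59 in TCRβ-negative cells. All 6 single-positive arrays with surface TCRβ were higher, at 4.06 and 3.67 in CD4SP control and CKO, 3.39 and 3.95 in CD8SP, and 2.30 and 4.87 in OT-I CD8SP. The lowest of these 6 arrays, the OT-I control, lay 2.73 above the highest of the other 3, DP CKO, against a residual SD of 0.89. Il2rb rose from DP to CD4SP by 4.98 (SE 0.68, adjusted p = 0.0250) and from DP to CD8SP by 4.79 (SE 0.68, adjusted p = 0.0256). Between the CKO arrays alone, Il2rb differed by -5.27 (38.5-fold) in TCRβ-negative relative to CD4SP cells. The fitted difference, which takes the genotype effect of the other populations, was larger. In that fit Il2rb fell by 5.97 from other CD4SP cells to TCRβ-negative ones (SE 0.86, 62.9-fold).

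Il2rg, the common gamma chain itself, was above background everywhere and moved over a narrow range. Its level was 3.44 and 3.98 in DP control and CKO, 5.04 and 5.09 in CD4SP, 4.08 and 4.69 in CD8SP, 4.10 and 5.03 in OT-I CD8SP, and 3.69 in TCRβ-negative cells. The lowest 2 arrays were the DP control and the TCRβ-negative ones, and the highest 3 were both CD4SP arrays and OT-I CKO. The fitted difference from DP was 1.35 for CD4SP (SE 0.31, adjusted p = 0.0878) and 0.67 for CD8SP (SE 0.31, adjusted p = 0.284), neither of which passed, and the TCRβ-negative difference from CD4SP was -1.63 (SE 0.39, adjusted p = 0.127). With normexp background correction the CD4SP and TCRβ-negative differences did pass.

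Il2ra, the alpha chain that makes the interleukin-2 receptor high in affinity, is carried by regulatory T cells and by early double-negative cells. Its level was -1.20 and 0.09 in DP control and CKO, 1.81 and 1.41 in CD4SP, -2.24 and -0.71 in CD8SP, 0.53 and -2.17 in OT-I CD8SP, and 0.37 in TCRβ-negative cells. It was not well above background in CD8SP control cells, and it was highest on both CD4SP arrays. No gap between neighbouring levels exceeded the residual SD of 1.38. The CD4SP difference from DP was 2.17 (SE 1.01, adjusted p = 0.344), and the CD8SP difference from CD4SP was -3.09 (SE 1.01, adjusted p = 0.332). On the 6 arrays of slide 1 alone, which leave out the OT-I pair and the CD8SP CKO array, both differences passed (adjusted p = 0.0303 and 0.0263, against a range over the other alternatives that reached 0.404 and 0.483). Regulatory T cell markers were also highest on the CD4SP arrays. The summed signal of 9 such genes, in log2, was 8.12 and 7.39 in CD4SP control and CKO against 4.20 to 6.00 on the other 7 arrays. Of the 9, 6 to 8 were above background on each array, and Foxp3, which defines the lineage, rose from DP to CD4SP. Among the other 7 arrays the order differed: OT-I control had Il2ra at 0.53 with a sum of 4.47. CD8SP control had Il2ra at -2.24 with a sum of 5.06, and CD8SP CKO at -0.71 with 6.00. The part of regulatory T cells in the Il2ra levels was not tested. In sorted bulk cells, fewer cells of a type and less RNA per cell cannot be told apart.

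Il4ra is the private chain of the interleukin-4 receptor. The brighter of its 2 probes gave 2.54 and 1.85 in DP control and CKO, 2.20 and 2.38 in CD4SP, 0.53 and 0.98 in CD8SP, 1.30 and 1.64 in OT-I CD8SP, and 1.09 in TCRβ-negative cells. The brighter probe was highest in DP control and lowest in CD8SP control and CKO cells. The second probe, from -1.28 to -0.13, was ordered differently, highest in CD4SP control and CKO and lowest in TCRβ-negative and CD8SP control cells. The fitted difference was -1.44 for CD8SP from DP (SE 0.36, adjusted p = 0.0971) and -1.53 for CD8SP from CD4SP (SE 0.36, adjusted p = 0.234), and neither passed. The CD8SP difference from DP passed with normexp background correction (adjusted p = 0.0416). For CD4SP against DP the difference was 0.10, with a 95% interval from -0.78 to 0.98.

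Il15ra, which presents interleukin-15, was the flattest of the 10 genes. Its brighter probe ranged from 4.28 in CD4SP CKO to 4.90 in OT-I control cells, a range of 0.62, and a second probe was above background on 1 of 9 arrays. Il21r, the interleukin-21 receptor, ranged from 3.81 to 4.98 and was highest on the 3 arrays where Il2rb was lowest: 4.70 and 4.95 in DP control and CKO and 4.98 in TCRβ-negative cells, against 3.81 to 4.46 on the other 6. Its fitted difference from DP was -0.87 for CD4SP (SE 0.28, adjusted p = 0.186) and -0.86 for CD8SP (SE 0.28, adjusted p = 0.154). Neither passed, and both passed with normexp background correction.

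**Figure D2:**
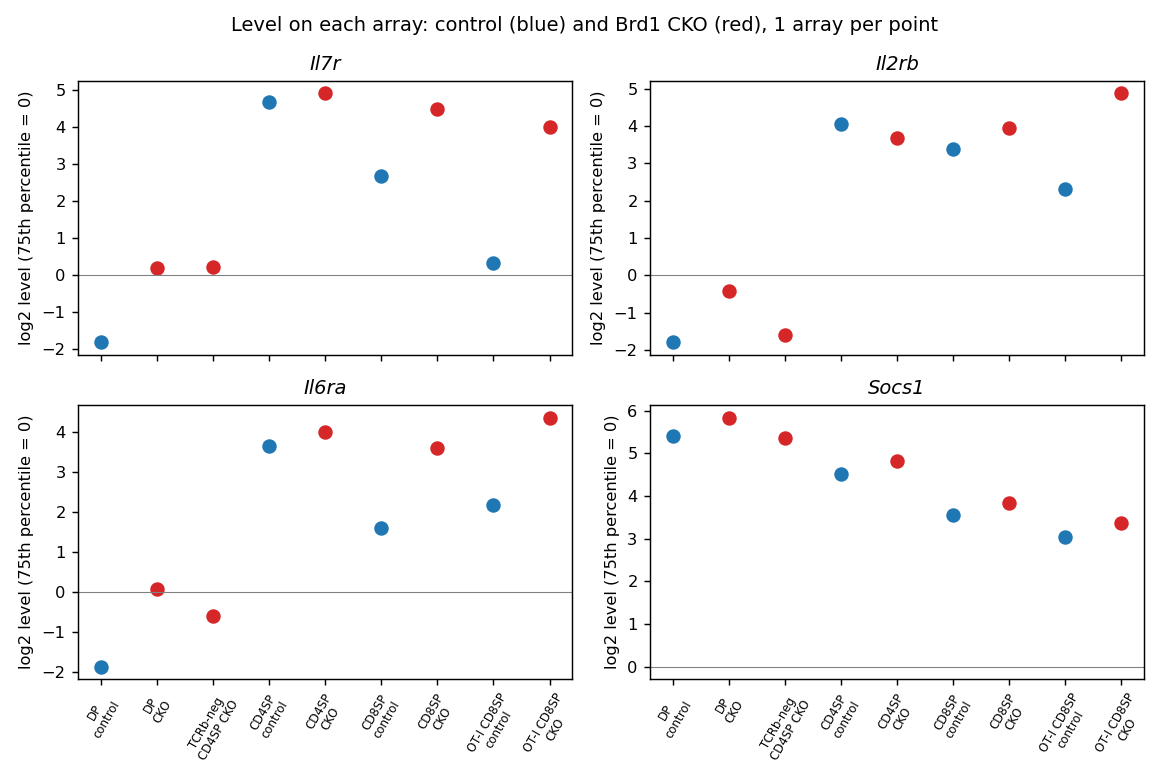
Log2 level (vertical axis; 0 is the 75th percentile of the array) of Il7r, Il2rb, Il6ra and Socs1 on each of the 9 arrays, blue for control and red for CKO. The OT-I control array lies with DP CKO cells for Il7r (0.33 against 0.20) but well above them for Il2rb (2.30 against -0.43).

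Il6ra, the ligand-binding chain of the interleukin-6 receptor, lies outside the common gamma chain family but followed Il7r and Il2rb closely. Its level was -1.86 and 0.08 in DP control and CKO, 3.65 and 4.00 in CD4SP, 1.61 and 3.60 in CD8SP, 2.19 and 4.36 in OT-I CD8SP, and -0.58 in TCRβ-negative cells. Every single-positive array with surface TCRβ lay above the DP and TCRβ-negative arrays, and the array labelled CKO lay above its control in all 4 pairs. Il6ra rose from DP to CD4SP by 4.71 (SE 0.49, 26.2-fold, adjusted p = 0.0164) and from DP to CD8SP by 3.49 (SE 0.49, 11.2-fold, adjusted p = 0.0256). In TCRβ-negative cells the fitted Il6ra level fell by 5.22 relative to CD4SP (SE 0.63, 37.2-fold, adjusted p = 0.0324). Il6st, the shared gp130 chain that carries the interleukin-6 signal into the cell, did not share this pattern. It ranged from 1.26 in CD8SP control to 2.90 in OT-I CKO cells, with DP cells at 2.16 and 1.99, and its CD4SP difference from DP was 0.04 (95% interval from -0.71 to 0.78).

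Socs1, the feedback inhibitor, was ordered by population. Its level was 5.40 and 5.84 in DP control and CKO, 5.35 in TCRβ-negative cells, 4.50 and 4.82 in CD4SP, 3.55 and 3.83 in CD8SP, and 3.04 and 3.38 in OT-I CD8SP control and CKO. The pairs of arrays of the 4 populations did not overlap, and the residual SD was 0.05, the smallest of the 10 genes. Socs1 fell by 1.93 from DP to CD8SP (SE 0.25, 3.81-fold, adjusted p = 0.0196). The DP to CD4SP difference of -0.96 (SE 0.25, adjusted p = 0.120) did not pass, except with normexp background correction (adjusted p = 0.0232; up to 0.268 over the alternatives), nor did the OT-I difference from CD8SP of -0.48 (SE 0.25, adjusted p = 0.856). Cish, another member of the SOCS family, went the opposite way: it rose by 4.92 from DP to CD4SP and by 4.26 from DP to CD8SP.

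From DP to CD4SP, 3 of the 10 genes passed, all higher, where 2.18% of all 20282 genes tested were called higher, 0.927% lower and 3.11% in either direction. From DP to CD8SP, 3 passed higher (2.42% of all genes) and 1 lower (1.04%). Between TCRβ-negative and other CD4SP cells, 2 passed, both lower (1.17% of all genes). The median over the 10 genes was 0.72 for CD4SP minus DP (all genes -0.00), -0.32 for CD8SP minus DP (all genes 0.03) and -1.22 for TCRβ-negative minus CD4SP (all genes 0.00). None passed for CD8SP against CD4SP (0.39% of all genes; 4 of 10 at an unadjusted p below 0.05, 13.3% of all genes), for OT-I against polyclonal CD8SP (0.237%; 1 of 10 unadjusted, 6.93%) or for TCRβ-negative cells against DP (0%; 1 of 10 unadjusted, 1.65%). The CD8SP control array was on slide 1 with all DP and CD4SP arrays, and the CD8SP CKO and both OT-I arrays were on slide 2. With slide as a block, the 3 DP to CD4SP calls were kept (adjusted p = 0.0308 to 0.0474), and none of the 4 DP to CD8SP calls was: Il7r was 4.46 (adjusted p = 0.206), Il2rb 5.10 (0.135), Il6ra 3.23 (0.183) and Socs1 -1.89 (0.190), with 0 calls among all genes in that fit. Scaled to the probes detected on all arrays, Socs1 was the 1 DP to CD8SP call kept, under quantile normalization Il7r was lost (adjusted p up to 0.206 over all alternatives), on slide 1 alone Il6ra and Socs1 were lost, and without the CD4SP pair Socs1 was lost. Both TCRβ-negative calls were lost with the slide block and under both of those scalings. They were also lost without the DP pair. Leaving out the CD8SP pair gave the same values as the slide block, because that pair alone spans both slides.

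**Figure D3:**
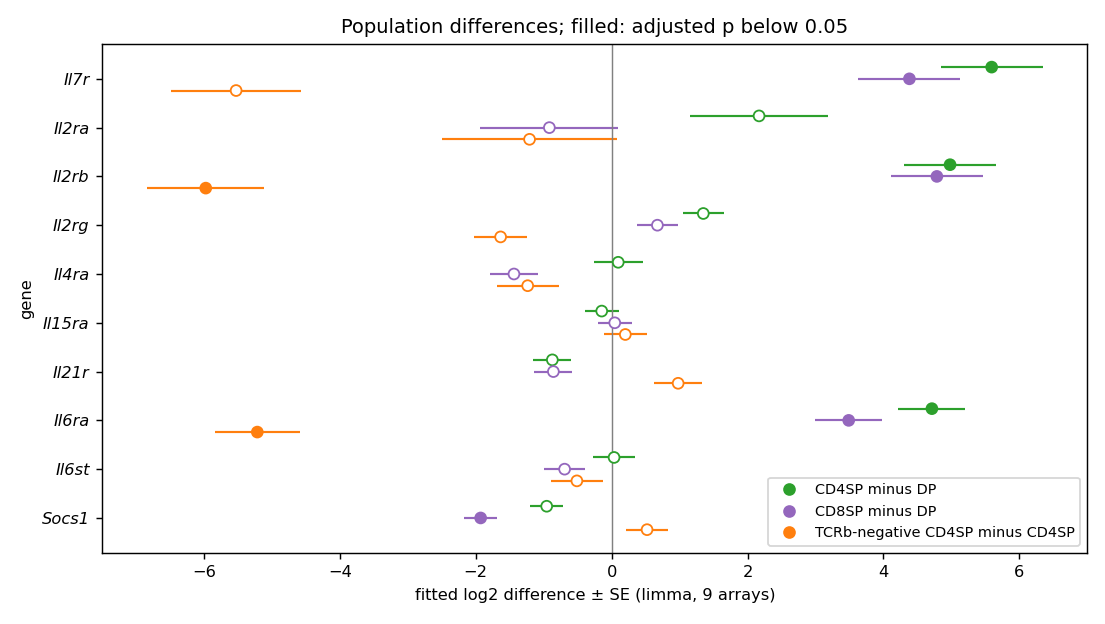
Fitted log2 difference (horizontal axis) with its standard error for each gene (vertical axis) in 3 population comparisons, from limma over 9 arrays; filled points have an adjusted p below 0.05. Il7r, Il2rb and Il6ra stand 3.49 or more above 0 for both single-positive populations and at -5.22 or below for TCRβ-negative CD4SP cells, while Il2rg, Il4ra, Il15ra, Il21r and Il6st lie between -1.63 and 1.35.

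With Brd1 genotype, none of the 10 genes passed over the 4 populations, where 0.281% of all genes did in limma. At an unadjusted p below 0.05 there were 3 of 10, against 10.9% of all genes. These were Il6ra (1.61, SE 0.35, adjusted p = 0.212), Il7r (1.93, SE 0.53, adjusted p = 0.300) and Il2rg (0.54, SE 0.22, adjusted p = 0.454), each higher with the CKO label in 4 of 4 pairs. Il2rb had 1.03 (SE 0.48, adjusted p = 0.501), higher in 3 of 4. How many of all genes were higher in 4 of 4 pairs was not counted. The median of the 10 genes was 0.31, with 8 positive, where all genes had a median of -0.04 and 45.3% were positive.

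Pair by pair, with 1 array on each side and no test, the differences were uneven across populations. In DP cells Il7r (2.01), Il6ra (1.94), Il2rb (1.37) and Il2ra (1.29) were more than 2-fold higher with the CKO label, 4 of 10 genes where 3.89% of all genes compared were. In CD4SP cells none of the 10 differed by 2-fold (3.46% of all genes were higher and 5.25% lower by that much), and Il7r differed by 0.22 and Il6ra by 0.35. In the CD8SP pair, which spans both slides, Il6ra (1.99), Il7r (1.81) and Il2ra (1.52) were higher, 3 of 10 against 6.73% of all genes. Il2ra was not above background in the CD8SP control. Under other settings of scaling, background and probe choice, Il2ra went down to 0.44 in the CD8SP pair and to 0.70 in DP cells. Il2rb went down to 0.83 in DP cells, so these differences were not past 2-fold under every setting. In OT-I cells Il7r (3.67, or 12.7-fold), Il2rb (2.57) and Il6ra (2.17) were higher, 3 of 10 against 8.45%. Il2ra was lower (-2.71, shrinking to -1.19 under another setting), where 13.8% of all genes were lower by 2-fold. These shares of all genes depend on the scaling: of the genes past 2-fold in the OT-I pair, 38.0% were higher here and 60.8% when scaled to the probes detected on all arrays, and for the CD8SP pair these were 42.2% and 56.9%, for the DP pair 42.3% and 22.9%. In the 4 pairs 0.118% to 26.9% of all genes had a higher difference than Il7r, the lowest share being that of OT-I and the highest that of CD4SP.

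As scaled here, Socs1 and 5 of the receptors differed by less than 2-fold in every pair. Socs1 was 0.44, 0.32, 0.29 and 0.33 in the DP, CD4SP, CD8SP and OT-I pairs, positive in 4 of 4, and its fitted genotype value of 0.34 (SE 0.17, adjusted p = 0.523) did not pass. It stayed positive in every pair under each of 5 other scalings, background corrections and probe choices, between 0.19 and 0.62. Il2rg was likewise positive in 4 of 4 (0.05 to 0.93) and under all those settings. Its OT-I difference of 0.93 reached 1.24 under another setting, which is past 2-fold. Il15ra was slightly negative in all 4 pairs (-0.24 to -0.02), but each pair turned positive under at least 1 of 5 other settings of scaling, background and probe choice. Il4ra, Il21r and Il6st were each positive in 3 of 4 pairs, and their differences lay between -0.68 and 0.67.

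**Figure D4:**
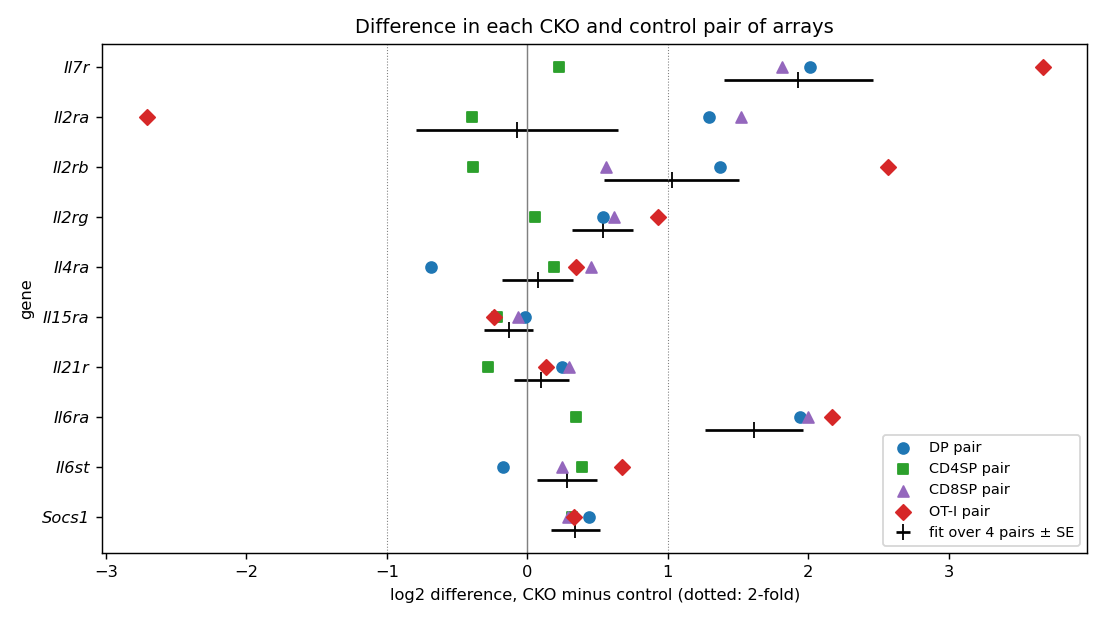
Log2 difference, CKO minus control (horizontal axis), for each gene (vertical axis) in each pair of arrays, with the limma estimate over the 4 pairs and its standard error in black; dotted lines mark 2-fold. CD4SP squares lie between -0.40 and 0.39 for all 10 genes, whereas Il7r reaches 3.67 and Il2ra -2.71 in the OT-I pair.

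Il7r was also set beside markers of maturation, measured on the same arrays. The summed signal of 12 genes of the mature single-positive stage, in log2, was 10.31 and 10.41 in CD4SP control and CKO, 9.34 and 10.62 in CD8SP, 9.29 and 10.55 in OT-I CD8SP, 7.47 and 8.07 in DP, and 7.64 in TCRβ-negative cells, with 12 of 12 above background on all arrays. Both CD8SP populations thus had more of it with the CKO label, as did DP cells by less, while the CD4SP pair was close. The sum of the DP stage genes ran the other way for CD8SP (9.97 and 9.21) and OT-I cells (9.54 and 7.35), with 11 or 12 above background on each array, but not in the DP pair (10.99 and 11.19) or the CD4SP pair (7.36 and 7.96). The sum of 16 proliferation genes was at 10.05 and 8.79 in CD8SP control and CKO and at 10.27 and 7.17 in OT-I control and CKO, with 15 or 16 above background on each array. The part of these stage and cycling differences in the Il7r, Il2rb and Il6ra differences was not tested. The 4 gamma delta T cell genes with a probe had a summed signal of 5.22 (log2) in OT-I control cells and 3.36 in OT-I CKO cells against 1.00 to 1.92 elsewhere, with 4 and 2 of the 4 above background in the OT-I pair and 1 to 4 on the other arrays. Its part in the OT-I values was not tested either.

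**Figure D5:**
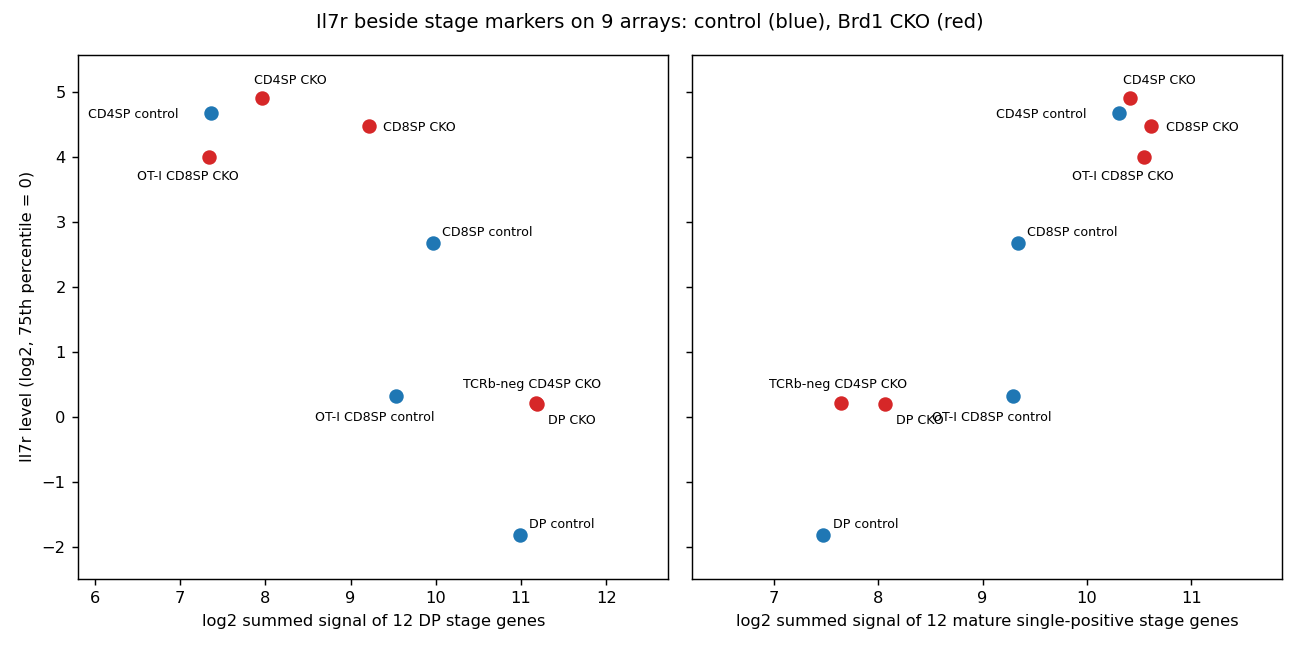
Il7r level (vertical axis) against the log2 summed signal of 12 DP stage genes (left) and 12 mature single-positive stage genes (right) on the 9 arrays, blue for control and red for CKO. The OT-I control array has Il7r at 0.33 with a mature-stage sum of 9.29, close to that of CD8SP control cells (9.34), whose Il7r was 2.67.

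Across the 9 arrays, Il7r correlated with Il2rg (Pearson r = 0.94), Il6ra (0.92) and Il2rb (0.90), and Il2rb with Il6ra (0.96). Socs1 ran against Il2rb (-0.74), Il15ra (-0.63) and Il6ra (-0.63). Il21r ran against Il2rb (-0.80), Il7r (-0.73), Il6ra (-0.70) and Il2rg (-0.62). Il2ra had no correlation above 0.44 in size with any of the other 9. These are descriptions over 9 arrays that share populations and slides. Among 9800 named genes above background on all arrays, the 5 most like Il7r were Rtp4 (r = 0.99), Xaf1 (0.99), Parp8 (0.99), Ikzf4 (0.98) and Isg20 (0.98), of which Rtp4, Xaf1 and Isg20 are known as interferon-induced genes and Ikzf4 is on the regulatory T cell marker list. Those most like Il6ra were Dcaf11, Myd88, Add3, Cnn2 and Pitpnm1 (r = 0.99 each). Those most like Socs1 were Klc3 (0.98), Hexim1 (0.97), Cacnb3 (0.97), Mtss1 (0.96) and Crispld2 (0.96).

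The rest of the pathway was described from lists chosen with earlier results known. Of 10 other chains of the gp130 and interleukin-12 families, 8 were tested and 1 passed, Il27ra, the interleukin-27 receptor. It rose from DP to CD4SP by 2.26 (SE 0.37, adjusted p = 0.0390) and to CD8SP by 2.10 (SE 0.37, adjusted p = 0.0453). Of all genes, 2.18% and 2.42% were called higher in these comparisons, and 3.11% and 3.46% in either direction. Ebi3, a subunit of interleukin-27, also passed: it was at least 9.85-fold higher in CD4SP and at least 16.8-fold higher in CD8SP than in DP cells, where it was not above background (adjusted p = 0.0169 and 0.00932). Of 4 further chains linked to the common gamma chain family, Il9r and Crlf2 were tested and neither passed; Crlf2, which pairs with Il7r to bind TSLP, went from 4.24 in DP control to 6.58 in OT-I CKO cells and differed by 1.49 between CD4SP and DP (SE 0.29, adjusted p = 0.0578). None of 6 tested receptors of the interferon and interleukin-10 families passed in these comparisons.

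Most ligands were not above background. Of 14 ligand genes, 3 were tested; Il7, Il9, Il13, Il15, Tslp, Il6, Lif and Il11 were not above background on any array. Il2, Il4 and Il21, each a ligand of receptors described here, were above background on the CD4SP control array alone, at -1.98, -0.54 and -0.56, against -3.41, -4.92 and -5.56 on the CD4SP CKO array. Of 7 NK and NKT markers, 5 were above background on that array and 2 or 3 on the other 8; their summed signal in log2 was 4.48 there, 1.80 in CD4SP CKO and 0.51 to 5.56 over all arrays. Their part in the ligand values was not tested.

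The 4 Janus kinases had positive differences, CKO minus control, in every pair. The share of all genes positive in every pair was not counted. Jak3, the partner of the common gamma chain, had a fitted difference of 1.22 (SE 0.25, adjusted p = 0.202), Tyk2 one of 0.85 (SE 0.20, adjusted p = 0.246), Jak1 one of 0.80 (SE 0.22, adjusted p = 0.298) and Jak2 one of 0.58 (SE 0.20, adjusted p = 0.403). None passed; the median was 0.82 against -0.04 for all genes, and all 16 differences stayed positive under each of 5 other settings of scaling, background and probe choice, at 0.12 or more. Of 7 STAT genes, 6 had a positive value, where 45.3% of all genes did, and none passed, with a median of 0.43. The largest was Stat4, at 1.06 (SE 0.25, adjusted p = 0.244). Of 16 tested SOCS genes, phosphatases and other inhibitors, 13 had a positive value (45.3% of all genes) and none passed. Socs5 had the largest, at 0.98 (SE 0.20, adjusted p = 0.192).

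Targets of these cytokines also differed by population. Of 17 such genes, 4 rose and 2 fell in each of the DP to CD4SP and DP to CD8SP comparisons, with medians of 0.94 and 1.15 (all genes -0.00 and 0.03); of all genes 2.18% and 2.42% rose and 0.927% and 1.04% fell. Ccnd2, a cyclin of the G1 phase, rose by 5.03 and 4.44, and Runx3, the CD8 lineage factor, by 1.93 and 2.70. Bcl2, the survival factor induced by interleukin-7, rose by 2.48 in CD4SP (SE 0.34, adjusted p = 0.0260) and had a difference of 1.15 in CD8SP (adjusted p = 0.131) that did not pass. Eomes was at least 8.63-fold higher in CD8SP than in DP cells, where it was not above background. Its CD4SP difference from DP passed, but of the CD4SP arrays it was above background on the CKO array alone. Prf1, the gene of perforin, rose by 1.77 in CD8SP. Bcl2l1, which encodes the survival protein of DP cells, fell by 2.12 and 2.17, and Bcl6, a repressor, fell by 2.22 and 2.63. In TCRβ-negative cells Bcl2 fell by 3.40 and Ccnd2 by 6.65 relative to CD4SP cells, and Cish was at least 71.2-fold lower.

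Of 10 genes known to regulate Il7r transcription, Klf2, a factor of quiescent and emigrating cells, rose by 4.03 in CD4SP and by 4.32 in CD8SP, and fell by 5.58 in TCRβ-negative cells (adjusted p = 0.0141, 0.00940 and 0.0270). Runx3 was the other one that passed. Of all genes, 2.18% were called higher from DP to CD4SP and 2.42% from DP to CD8SP. The 10 regulators did not move together. From DP to CD4SP, 6 had a positive value, with a median of 0.32 (all genes -0.00). From DP to CD8SP, 3 had a positive value, with a median of -0.46 (all genes 0.03). Foxo1, which binds an Il7r enhancer, and Gfi1, a repressor of Il7r, are named for these roles after their values were seen. Foxo1 had 1.93 in CD4SP (adjusted p = 0.111) and 1.44 in CD8SP (adjusted p = 0.167), and Gfi1 had -2.29 (adjusted p = 0.104) and -1.24 (adjusted p = 0.279). With genotype none of the 10 passed, and the 3 largest values were those of Klf2 (1.098), Foxp1 (0.82) and Runx3 (0.53).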

How the data were processed

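RNA of 9 sorted thymocyte groups, 1 array each, was measured on one-colour Agilent arrays (design 028005, build mm9). Per the file headers, Agilent Feature Extraction 10.7.1.1 (protocol GE1_107_Sep09) made the deposited intensity of each spot, a processed signal after background subtraction. The labels describe another labelling chemistry than these Cy3 files. The deposited series table holds the same intensity divided by the array's 75th percentile.

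Processed signals were averaged over the spots of a probe (without outlier flags), scaled to the array's 75th percentile and taken to log2. Probes were named through RefSeq accessions, the brightest probe stood for a gene, and 20282 genes detected on at least 2 arrays were tested with limma 3.58.1 in R 4.3.3, with population and genotype as terms over all 9 arrays and Benjamini-Hochberg adjustment (threshold 0.05). Steps were tested on simulated data. With 3 residual degrees of freedom, the number of arrays limits precision. Alternatives were scaling, normexp, probe choice, detection filter, slide and leaving out each pair. All 10 genes are named, with other genes of each list that passed or had 1 of the 3 largest genotype values, and the 5 genes most correlated with Il7r, Il6ra and Socs1. Members and lists were chosen with earlier results of these data known.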

Additional observations from a re-analysis of the deposited data

Results flagged for a closer look

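Il2ra differed in opposite directions between pairs of arrays. With the CKO label it was 1.29 higher (log2) in DP cells and 1.52 higher in CD8SP cells, where the control was not above background. Its difference was -2.71 in OT-I CD8SP cells, where the CKO level of -2.17 lay near the array's lowest signal above background (-2.84). Under other settings of scaling, background and probe choice these differences shrank to as little as 0.70, 0.44 and -1.19. The list of double-negative progenitor markers holds Il2ra itself. Of its other genes, Dtx1, Lyl1 and Notch3 were also past 2-fold higher in the DP pair. Bcl11a, Dtx1 and Lyl1 were in the CD8SP pair (with Notch3 lower), and Dtx1 in the OT-I pair. In the CD4SP pair, where Il2ra differed by -0.40, Dtx1 was past 2-fold higher and Bcl11a and Lmo2 lower. Of all genes compared, 3.89%, 3.46%, 6.73% and 8.45% were that much higher in the DP, CD4SP, CD8SP and OT-I pairs. In the CD4SP and CD8SP pairs, 5.25% and 9.21% were that much lower. The log2 summed signal of the 10 markers was 2.47 and 3.98 in DP control and CKO, 3.78 and 4.89 in CD8SP, and 4.97 and 5.84 in OT-I CD8SP, with 6 to 8 above background on each array and Hes1 and Erg on none; their part in the Il2ra values was not tested. Each pair is 1 array against 1, and the difference between the pairs was not tested.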

How the results depend on the processing

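Genotype was compared within population in the fit itself; no analysis paired by replicate number could be made, as each group has 1 array. Of the values of the 10 genes in the fitted comparisons, 536 kept direction and side of the threshold, 21 lost and 11 gained a call, and 36 reversed, none of which was called; causes were not tested. Reversed values were, scaled to the probes detected on all arrays, Il15ra -0.027 (CD8SP minus CD4SP), -0.11 (CD8SP minus DP), -0.013 (TCRβ-negative minus CD4SP) and -0.094 (TCRβ-negative minus DP), Il21r -0.20 (CD8SP minus CD4SP) and -0.044 (TCRβ-negative minus DP), and Il7r -0.084 (TCRβ-negative minus DP). With quantile normalization they were, in the same order, Il15ra -0.046, -0.12, -0.034 and -0.11, and Il21r -0.18 and -0.044. With normexp they were Il15ra -0.098 (CD8SP minus DP), Il21r -0.094 (CD8SP minus CD4SP), Il4ra -0.017 and Il6st -0.011 (CD4SP minus DP), and Il7r -0.22 (TCRβ-negative minus DP). With probes averaged they were Il15ra 0.098 (CD4SP minus DP), -0.039 (OT-I minus CD8SP) and 0.037 (genotype). With the slide block they were Il15ra -1.2e-05 (CD8SP minus DP), Il21r -0.11 and Il2rb 0.12 (CD8SP minus CD4SP), Il2ra -0.41 and Il2rb 0.22 (OT-I minus CD8SP), and Il4ra -0.051 (genotype). On slide 1 alone they were Il21r -0.14 (CD8SP minus CD4SP) and, for genotype, Il21r -0.015, Il2ra 0.45 and Il4ra -0.25. With each pair left out in turn, values ranged from -0.60 to 0.81 for Il2ra and from -0.051 to 0.33 for Il4ra (genotype), and from -0.22 to 0.36 for Il7r (TCRβ-negative minus DP).

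Counts of called genes moved more. Leaving out the CD8SP pair gave the same values as the slide block for genotype, CD4SP minus DP and both TCRβ-negative comparisons. For genotype, 57 became 32 (detected-probe scaling), 29 (quantile), 96 (no filter), 0 (slide block), 132 (slide 1) and 0 to 24 with a pair left out. For CD4SP minus DP, 630 became 952 (normexp), 285 (slide block), 2000 (slide 1) and 285 to 1176 with a pair left out. For CD8SP minus DP, 702 became 1534 (normexp) and 0 (slide block). For CD8SP minus CD4SP, 79 became 15 (detected-probe scaling), 122 (no filter), 0 (slide block), 1028 (slide 1) and 0 to 145 with a pair left out. For OT-I minus CD8SP, 48 became 29 (detected-probe scaling), 17 (slide block) and 20 to 27 with a pair left out. For TCRβ-negative minus DP, 0 became 18 without the filter. For TCRβ-negative minus CD4SP, 285 became 91 (detected-probe scaling), 0 (quantile), 576 (normexp), 442 (no filter), 0 (slide block), 1373 (slide 1) and 0 to 580 with a pair left out. Genes past 2-fold went with normexp, and without the filter, from 1848 to 489 and 4496 (DP pair), from 1723 to 512 and 4621 (CD4SP), from 2967 to 1098 and 5732 (CD8SP) and from 4136 to 2289 and 6712 (OT-I). The share of calls that were higher was 14.0% for genotype, 3.13% with detected-probe scaling and 49.0% with normexp; for CD8SP minus CD4SP it was 67.1% and 46.7% with detected-probe scaling. Among genes past 2-fold it was 38.0% in the OT-I pair, 60.8% with detected-probe scaling and 27.7% with normexp. Detected-probe scaling moved the median of all genes from 0.03 to -0.12 (CD8SP minus DP), from 0.04 to -0.18 (CD8SP minus CD4SP) and from 0.00 to -0.21 (TCRβ-negative minus CD4SP).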

Other observations

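Genes of memory-like and innate CD8 T cells also differed by population. Of 11 tested, 3 rose from DP to CD4SP (Ccl5, Cxcr3 and Eomes) and 4 from DP to CD8SP (the same 3 and Nkg7), with medians of 2.99 and 4.41 (all genes -0.00 and 0.03), where 2.18% and 2.42% of all genes rose. Of the CD4SP arrays, Eomes was above background on the CKO array alone. With genotype 9 of 11 had a positive value, with a median of 0.77, and none passed in limma; over all genes 45.3% were positive and the median was -0.04. In the CD8SP pair 8 of 11 were higher with the CKO label (median 1.80, all genes -0.12) and in the OT-I pair 10 of 11 (median 1.92, all genes -0.08), where Gzma was past 2-fold lower. Their log2 summed signal, in which bright genes weigh most, was 8.62 and 9.52 in CD8SP control and CKO and 9.84 and 9.19 in OT-I CD8SP control and CKO, so in the OT-I pair the sum was lower with the CKO label although most of its genes were higher; 9 to 11 of the 11 were above background on these 4 arrays.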
